A study of Mus musculus with 18 samples.

Results

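The genes described here encode the heat shock proteins and the J-domain proteins that work with them. They were taken by symbol: the Hspa, Hspb and Hsp90 genes, Hspd1, Hspe1, Hsph1, and the Dnaja, Dnajb and Dnajc genes, each with enough counts to test. The table held 70 such genes, and 63 of them passed the filter on low counts, out of 16738 genes tested and 57180 gene identifiers in all. The 7 genes that did not pass were Hspb2, Hspb3, Hspb7, Hspb9, Dnajb7, Dnajb8 and Dnajc22. No measured value entered the rule apart from that filter.

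Hippocampal RNA was sequenced from wild-type adolescent male C57BL/6J mice, 6 mice in each of 3 groups and 1 library per mouse. The first group underwent chronic social defeat stress (CSDS), in which a mouse is repeatedly placed with an aggressive resident, and also received aerobic exercise training. Training began 1 week before the defeat sessions and went on through them, so the trained mice carry both exposures and no group was trained without defeat. The second group underwent CSDS alone, and the third was a control group with neither. All 18 libraries carry the same batch label, and poly(A) RNA was sequenced in bulk, so fewer cells of a type and less RNA per cell cannot be told apart. The comparisons ask how these genes differed between trained and untrained defeated mice, between trained defeated mice and controls, and between defeated mice and controls.

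Heat shock proteins bind unfolded stretches of other proteins and help them fold, refold, assemble or be degraded. HSP70 proteins do this in cycles of ATP binding and hydrolysis; J-domain proteins bring them their clients and speed the hydrolysis, while HSP110 proteins exchange the nucleotide. HSP90 acts later on kinases and steroid receptors, including the glucocorticoid receptor that responds to stress hormones, and HSPD1 with HSPE1 forms the folding chamber of mitochondria. Heat shock factor 1 raises transcription of a subset of these genes when unfolded protein accumulates in the cytosol, and the unfolded protein response raises another subset when it accumulates in the endoplasmic reticulum.

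Total counts were 18911080 to 24136591 per library, and mitochondrially encoded genes took 1.71% to 5.10% of them. All 8 dentate granule markers and all 8 pyramidal cell markers of the hippocampus were detected, though the granule markers Dsp and Pla2g2f were at 0 in at least 1 library. Control replicate 2 stood apart: its granule markers summed to 115.5 counts per 1000000 counts (CPM), against 380.4 to 769.5 CPM in the other 17 mice, and its neocortical markers summed to 794.8 CPM, against 190.9 to 261.5 CPM. Trained replicate 6 had the highest thalamic (860.8 CPM) and oligodendrocyte (10281 CPM) marker sums, and control replicate 3 had the highest thalamic sum of the controls (627.9 CPM), against 118 to 174.1 CPM in CSDS mice. The median thalamic sums were close, at 153.2 CPM in trained mice, 139.1 CPM in CSDS mice and 145.4 CPM in controls. By fitted fold all 7 tested thalamic markers were higher in trained than in CSDS mice (median 1.14 on the log2 scale). Of these, 4 were at an unadjusted p under 0.05, beside 8.1% of all genes, and none was called. All 7 were lower in CSDS mice than in controls (median -0.90). Choroid plexus markers summed to 66.6 to 6601 CPM in trained mice, 98.2 to 8516 CPM in CSDS mice and 19.9 to 5510 CPM in controls. The median sums were 1476, 1025 and 3783 CPM in these groups. By fitted fold all 8 were lower in trained mice than in CSDS mice (median -0.36) and than in controls (median -0.66), none at an unadjusted p under 0.05. For trained against CSDS mice the median sums thus went the other way, and the highest CSDS sum was that of replicate 5. Libraries also differed in how their values leaned with the GC content of transcripts. This GC slope, in log2 units per 10 percentage points, had a median of -0.19 in trained mice (-0.44 in replicate 3 to 0.19 in replicate 4), 0.19 in CSDS mice (-0.15 to 0.28) and 0.02 in controls (-0.09 to 0.31). The part of these differences in the results below was not tested, except that values are repeated after a GC correction.

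Promoters are shown for some of the heat-inducible genes, each of which holds such a repeat, because heat shock factors bind inverted repeats of a short GAA unit. RefSeq promoters of mouse build GRCm38.p6, which run from 250 bases before to 50 bases after a start, were found for 57 of the 70 genes. A pair of units, GAANNTTC or TTCNNGAA, which each read the same on both strands, is in capitals below. Each sequence is given 5′ to 3′ on the gene's strand.
Hspa1a, 250 bases before the start, chr17:34972157-34972406, minus strand: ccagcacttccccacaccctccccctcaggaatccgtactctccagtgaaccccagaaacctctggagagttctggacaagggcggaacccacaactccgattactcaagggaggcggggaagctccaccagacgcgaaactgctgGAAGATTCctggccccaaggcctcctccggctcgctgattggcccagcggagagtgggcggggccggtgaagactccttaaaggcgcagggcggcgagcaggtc
Hspa1b, 250 bases before the start, chr17:34959239-34959488, minus strand: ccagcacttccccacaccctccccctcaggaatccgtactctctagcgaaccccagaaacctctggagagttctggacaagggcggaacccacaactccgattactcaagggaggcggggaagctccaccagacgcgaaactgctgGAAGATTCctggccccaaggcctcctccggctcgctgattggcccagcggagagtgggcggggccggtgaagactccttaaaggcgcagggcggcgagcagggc
Hspb1, 250 bases before the start, chr5:135887669-135887918, plus strand: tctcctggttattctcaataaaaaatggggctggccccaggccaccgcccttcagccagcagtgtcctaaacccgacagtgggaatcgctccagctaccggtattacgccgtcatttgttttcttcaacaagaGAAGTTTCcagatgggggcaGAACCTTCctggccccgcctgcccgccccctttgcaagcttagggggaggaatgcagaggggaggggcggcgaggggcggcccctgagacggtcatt
Hsph1, 30 bases around the pair before its RefSeq starts, chr5:149636351-149636380, minus strand: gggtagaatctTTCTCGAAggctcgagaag
Hspe1, 30 bases around the pairs before its start, chr1:55088053-55088082, plus strand: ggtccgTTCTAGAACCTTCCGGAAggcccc
The Hspa1a and Hspa1b promoters, on neighbouring copies of the inducible HSP70 gene, differed at 3 of 250 positions, counted from 1 at the 5′ end (C44T, T47C and T249G, with the Hspa1a base first), and are 98.8% identical. The Hspe1 stretch lies before the start of Hspe1 and within an annotated exon of Hspd1 on the other strand, and it carries 3 overlapping pairs in a row. The marked pair of Hsph1 lies before the RefSeq starts but within an annotated Hsph1 exon of GENCODE M21.

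Runs of 3 units, a GAANNTTC followed by NNGAA or a TTCNNGAA followed by NNTTC, searched on both strands, were in 6 of 74 promoters of these genes, those of Hspd1, Hspe1, Hsph1 and Dnajb6, against 198 of 32851 promoters of all genes (0.603%). The run of Hsph1 lies after its RefSeq starts. Counted by gene, such runs were in 4 of 57 genes, against 179 of 27025. The 6 promoters are not separate stretches: Hspd1 and Hspe1 share the same one, and Hsph1 and Dnajb6 each count more than once through overlapping promoters. Pairs of units, which the longer runs also contain, were in 17 of 74 promoters (23%), against 15.1% of all promoters. By gene, pairs were in 15 of 57, against 4587 of 27025. Of 18 promoters of the heat-inducible genes, which belong to 11 genes, 10 held a pair, in 9 genes. The promoters of Dnajb1 and Hspa4l held none, and Hspa8, Hsp90aa1 and Hsp90ab1 had no promoter to search. A match is a string of letters and not a shown binding site.

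The levels of the 63 genes spanned from 861 CPM per kilobase of transcript for Hsp90ab1 to 0.439 for Dnajb13 on average over 18 mice. Hsp90ab1, the constitutive cytosolic HSP90, and Hspa8, the constitutive cytosolic HSP70 that also uncoats clathrin vesicles at synapses, came first, at 861 and 807 CPM per kilobase. These 2 genes alone gave 40.0% of the summed CPM of all these genes in trained mice, 40.8% in CSDS mice and 40.2% in controls. Hsp90aa1, the more inducible cytosolic HSP90, followed at 237, Dnajb6, which keeps aggregation-prone proteins soluble, at 107, and Hsp90b1, the HSP90 of the endoplasmic reticulum, at 92.8 CPM per kilobase. The inducible genes Hspa1a and Hspa1b stood at 6.57 and 8.99, far under their constitutive relative Hspa8. Of the 62 pairs of neighbours in this order, 54 had means that lay within the larger SD of the pair. The ranges over mice were separate for 3 pairs: Hspa8 over Hsp90aa1, Hsp90aa1 over Dnajb6, and Dnajc28 over Dnajc25. The summed level was 10413 ± 729 CPM in trained mice, 10027 ± 270 CPM in CSDS mice and 10063 ± 389 CPM in controls (SD, n = 6 each).

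**Figure D1:**
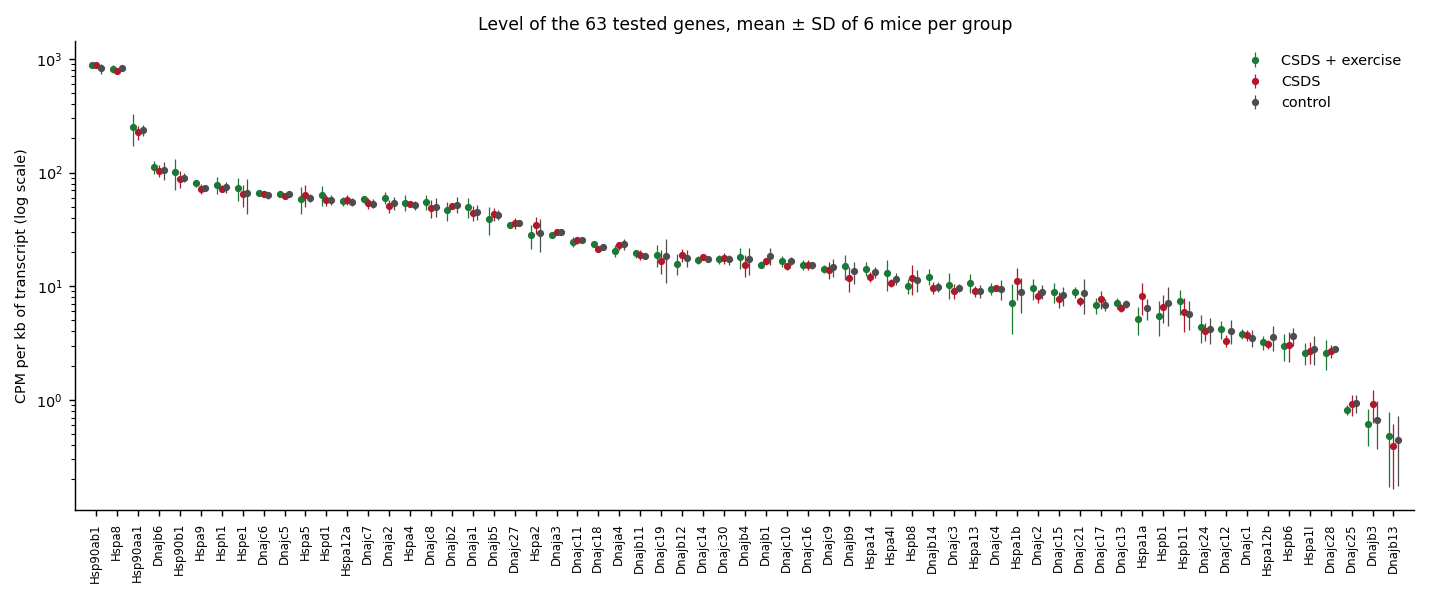
Level of each tested gene in CPM per kilobase of transcript on a log axis, as mean ± SD of 6 mice in each group, with genes ordered by their mean over 18 mice. Hsp90ab1 and Hspa8 lead at 861 and 807, and the colours of the 3 groups lie close together for most genes.

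In none of the 3 comparisons did any of these genes pass edgeR's quasi-likelihood test at a Benjamini-Hochberg adjusted p under 0.05, so the account gives values and no gene is said to have risen or fallen. In trained against CSDS mice, 0 of 63 genes were called, as were 0% of all 16738 genes. At an unadjusted p under 0.05, 6 genes were higher, beside 8.1% of all genes, and 2 were lower, beside 7.46% of all genes. In trained mice against controls the call count was again 0 of 63, beside 0.0179% of all genes, with 2 genes higher at the unadjusted threshold, beside 6.8%, and 1 lower, beside 4.39%. In CSDS mice against controls it was 0 of 63, beside 0% of all genes, and no gene of the set reached an unadjusted p under 0.05, beside 3.51% of all genes (1.83% higher and 1.68% lower). DESeq2 called none of the set, beside 0.89% of all genes in trained against CSDS mice, 0.675% in trained mice against controls and 0% in CSDS mice against controls. limma voom with quality weights called 22 in trained against CSDS mice, where it called 33.3% of all genes, 0 in trained mice against controls, beside 1.09%, and 0 in CSDS mice against controls, beside 0%.

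The inducible HSP70 genes had the largest fold in trained against CSDS mice among genes with an unadjusted p under 0.05, with lower values in trained mice. Hspa1a (ENSMUSG00000091971, chr17:34969190-34972156, minus strand, GRCm38) measured 10.9 CPM at the lowest, 15.0 at the median and 22.5 at the highest in trained mice, against 14.1, 25.4 and 33.1 CPM in CSDS mice and 14.7, 17.5 and 25.4 CPM in controls. The groups overlapped: CSDS replicates 4 and 5, at 16.8 and 14.1 CPM, lay among the trained mice, while trained replicate 4, at 22.5 CPM, was the highest of its group. Those 2 CSDS mice had the only negative GC slopes of their group, and trained replicate 4 the only positive slope of its own. The fold was -0.67 ± 0.21 on the log2 scale (SE; unadjusted p = 0.00462, edgeR adjusted p = 0.204). Leaving out trained replicate 4, the trained mouse with the highest value, had to enlarge this fold. It was then -0.83 ± 0.20 (edgeR adjusted p = 0.0387, with 3.71% of all genes called). With GC correction and without that mouse, 0 of all 16856 genes tested were called higher and 0 lower. After GC correction with all mice the fold was -0.40 ± 0.15 (adjusted p = 0.717). In CSDS mice against controls Hspa1a differed by 0.35 ± 0.21 (adjusted p = 0.993), and in trained mice against controls by -0.32 ± 0.21 (adjusted p = 0.574).

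Hspa1b, the second copy, followed the same mice. Its lowest, median and highest values were 11.3, 18.1 and 37.6 CPM in trained mice, 18.4, 34.0 and 43.5 CPM in CSDS mice, and 12.3, 23.5 and 36.8 CPM in controls. Trained replicate 4 stood far above the other 5 trained mice, and CSDS replicates 4 and 5 far under the other 4 CSDS mice. The difference of trained from CSDS mice was -0.63 ± 0.29 (adjusted p = 0.301). Because reads of the copies can be assigned to either gene, their counts were also summed, which gave -0.65 ± 0.25 in trained against CSDS mice (adjusted p = 0.247), -0.39 ± 0.18 after GC correction (adjusted p = 0.832) and -0.89 ± 0.23 without trained replicate 4 (adjusted p = 0.0439). The last value leaves out the trained mouse that was highest for both copies, which had to enlarge the fold. Hspa1a also overlaps the predicted gene Gm20481 on the other strand, and the strand setting of the authors' counting is not given in the sources used here.

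**Figure D2:**
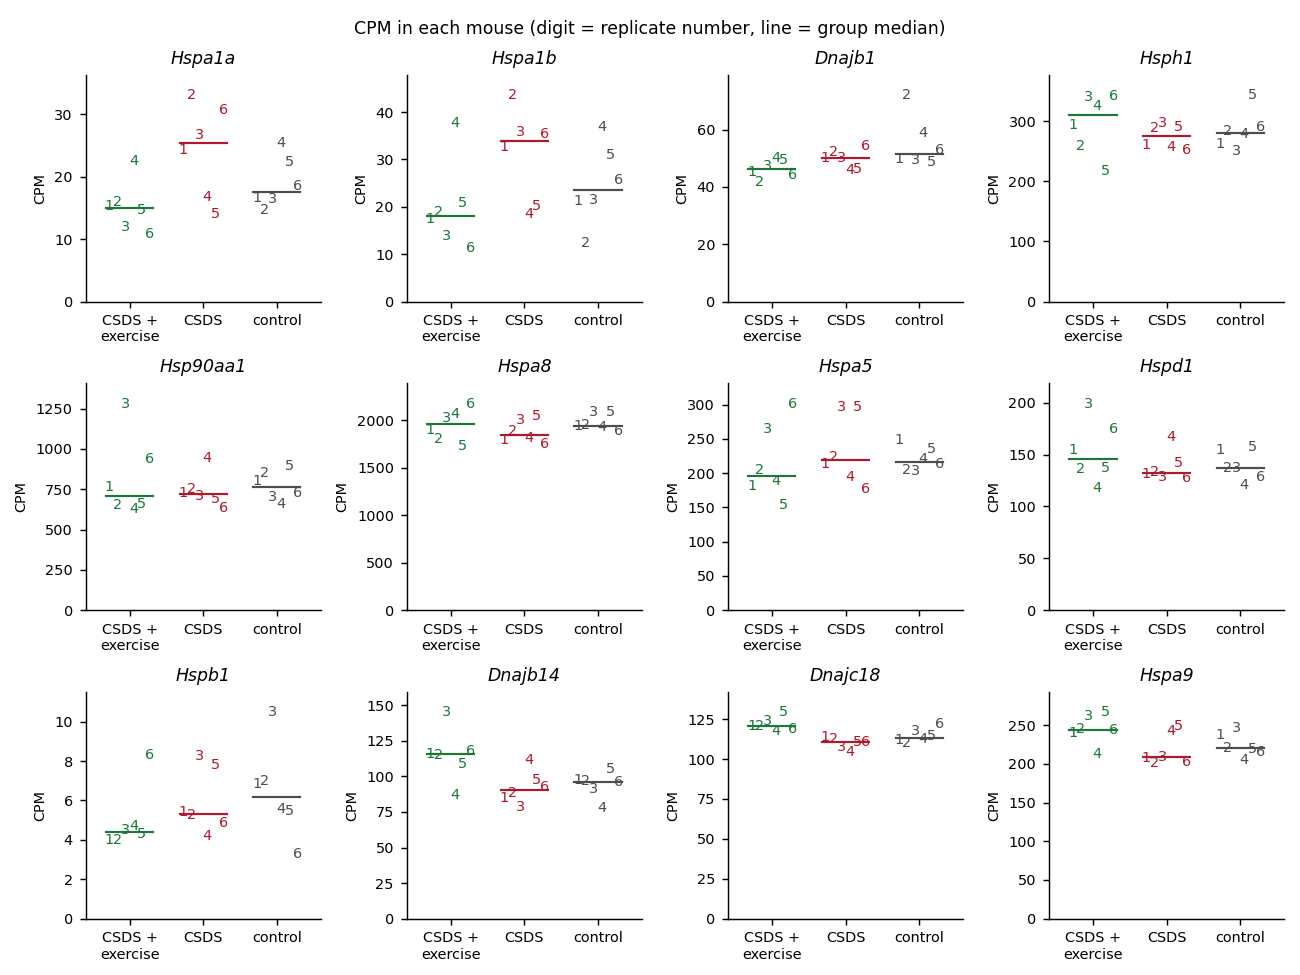
CPM of 12 genes in each mouse, with the digit giving the replicate number and the line the group median, for trained, CSDS and control mice from left to right. Hspa1a and Hspa1b are high in CSDS replicates 1, 2, 3 and 6, in trained replicate 4 and in control replicates 4 and 5, and Dnajc18 is the gene whose trained mice (118 to 129 CPM) all lie above the CSDS mice (104 to 114 CPM).

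The other cytosolic HSP70 genes differed less. Hspa8 measured 1723, 1959 and 2172 CPM at the lowest, median and highest in trained mice, against 1746, 1846 and 2038 CPM in CSDS mice and 1880, 1943 and 2082 CPM in controls. Its groups overlapped throughout, with 0.05 ± 0.07 in trained against CSDS mice (adjusted p = 0.742). Hspa14, a ribosome-associated HSP70 that shares exons on its strand with the predicted gene Gm45902, measured 23.0, 24.2 and 31.8 CPM in trained mice, against 19.1, 22.0 and 23.6 CPM in CSDS mice and 20.6, 24.2 and 26.8 CPM in controls. The ranges of trained and CSDS mice met between 23.0 and 23.6 CPM, and the difference was 0.25 ± 0.10 (adjusted p = 0.268), or 0.11 ± 0.09 after GC correction. Hspa2, a testis-enriched HSP70 that brain also expresses, had a difference of -0.31 ± 0.21 in trained against CSDS mice (adjusted p = 0.454), and its lowest value of 34.0 CPM was in control replicate 2, against 51.0 to 104 CPM in the other 17 mice. Hspa1l, the testis HSP70, stayed between 4.75 and 10.3 CPM, with its highest value also in control replicate 2. Hspa12b, a divergent family member of endothelial cells, measured 9.53, 10.4 and 13.8 CPM in trained mice, 9.85, 10.3 and 12.3 CPM in CSDS mice and 9.36, 11.1 and 15.9 CPM in controls, with -0.21 ± 0.14 in CSDS mice against controls (adjusted p = 0.993).

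For all HSP110 and HSP90 genes the groups overlapped. Hsph1, which codes for an inducible HSP110, measured 218, 310 and 342 CPM in trained mice, 251, 275 and 297 CPM in CSDS mice and 250, 281 and 343 CPM in controls. Hspa4l, another HSP110, measured 86.7, 109 and 181 CPM in trained mice, 89.9, 102 and 110 CPM in CSDS mice and 88.5, 113 and 128 CPM in controls. Hsp90aa1 measured 630, 710 and 1280 CPM in trained mice, 634, 719 and 941 CPM in CSDS mice and 659, 763 and 893 CPM in controls. For the last 2 genes the group medians were close and the top of the trained range came from replicates 3 and 6, at 181 and 162 CPM for Hspa4l and 1280 and 938 CPM for Hsp90aa1. Differences of trained from CSDS mice were 0.11 ± 0.11 for Hsph1, 0.29 ± 0.15 for Hspa4l and 0.14 ± 0.15 for Hsp90aa1 (adjusted p = 0.606, 0.352 and 0.659), and after GC correction they were 0.01 ± 0.10, 0.07 ± 0.10 and 0.00 ± 0.12. Hsp90ab1 measured 2099, 2206 and 2453 CPM in trained mice, 2085, 2224 and 2358 CPM in CSDS mice and 1697, 2111 and 2276 CPM in controls, the lowest in control replicate 2. It differed by 0.01 ± 0.08 in trained against CSDS mice (adjusted p = 0.98) and by 0.10 ± 0.08 in CSDS mice against controls (adjusted p = 0.993).

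Among the cytosolic J-domain genes, Dnajb1, the main inducible partner of HSP70, had the smallest p of the set in trained mice against controls. It measured 41.7, 46.3 and 49.95 CPM at the lowest, median and highest in trained mice, against 45.9, 50.1 and 54.4 CPM in CSDS mice and 48.8, 51.4 and 72.0 CPM in controls. The highest control was replicate 2, at 72.0 CPM, with 41.7 to 58.9 CPM in the other 17 mice. The difference of trained mice from controls was -0.26 ± 0.09 (unadjusted p = 0.0119, adjusted p = 0.31), and -0.17 ± 0.07 without control replicate 2 (adjusted p = 0.4). Under GC correction the difference was -0.24 ± 0.09 (adjusted p = 0.533). Dnaja1, a farnesylated partner of HSP70, measured 208, 273 and 379 CPM in trained mice, 222, 229 and 316 CPM in CSDS mice and 195, 263 and 287 CPM in controls. Dnaja2, another partner that supports refolding, measured 147, 171 and 209 CPM in trained mice, 134, 137 and 177 CPM in CSDS mice and 125, 169 and 177 CPM in controls. Both were lowest in replicate 4 of the trained and the control group and highest in replicate 4 of the CSDS group, the replicates with the highest GC slope of the trained and control mice and the lowest of the CSDS mice. The difference of trained from CSDS mice was 0.25 ± 0.11 for Dnaja2 (adjusted p = 0.28) and 0.07 ± 0.06 after GC correction. Dnaja1 showed 0.19 ± 0.13 (adjusted p = 0.484) and -0.02 ± 0.06 after the correction. Dnaja4, an inducible class A partner, measured 49.4, 61.2 and 72.9 CPM in trained mice, 60.8, 68.8 and 76.5 CPM in CSDS mice and 61.1, 71.5 and 78.0 CPM in controls, with -0.19 ± 0.09 in trained mice against controls (adjusted p = 0.459), or -0.10 ± 0.09 after GC correction. Dnajb4, a relative of Dnajb1, measured 32.6, 43.2 and 60.9 CPM in trained mice, 30.8, 34.2 and 49.5 CPM in CSDS mice and 28.2, 44.0 and 59.8 CPM in controls, and its groups overlapped throughout.

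Of these genes, 11 were listed as genes of the endoplasmic reticulum, a list that need not be complete. In trained against CSDS mice 8 were higher and 3 lower, with a median of 0.15 on the log2 scale beside 0.02 for all genes, and after GC correction 4 were higher and 7 lower, with a median of -0.05. Dnajb14, a membrane J-domain protein of this compartment, measured 86.9, 116 and 145 CPM in trained mice, against 78.4, 90.5 and 111 CPM in CSDS mice and 77.8, 96.4 and 106 CPM in controls. Trained replicates 4 and 5, at 86.9 and 108 CPM, lay within the CSDS range, and the other 4 trained mice lay above it. The difference from CSDS mice was 0.32 ± 0.11 (unadjusted p = 0.00842, adjusted p = 0.219), 0.37 ± 0.10 without trained replicate 4 (adjusted p = 0.0478) and 0.14 ± 0.06 after GC correction (adjusted p = 0.762). Trained replicate 4 was the lowest of its group, so leaving it out had to enlarge this difference. From controls it was 0.29 ± 0.11 (adjusted p = 0.335), and 0.15 ± 0.06 after GC correction (adjusted p = 0.57). Dnajb14 shares exons on its strand with the predicted gene Gm15460. Dnajc18, a related membrane protein that was not on that list, measured 118, 121 and 129 CPM in trained mice, against 104, 111 and 114 CPM in CSDS mice and 110, 114 and 122 CPM in controls. It was the only gene of the 63 whose trained and CSDS mice did not overlap, beside 0.364% of all genes that were higher and 0.526% that were lower with no overlap. No gene of the set was free of overlap in trained mice against controls, beside 0.46% of all genes higher and 0.102% lower, or in CSDS mice against controls, beside 0.155% higher and 0.0836% lower. Dnajc18 also varied least within groups (SD of 0.05 on the log2 scale), and its difference was 0.15 ± 0.05 (adjusted p = 0.242), or 0.05 ± 0.06 after GC correction.

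Hspa5 (BiP), the HSP70 of this compartment and a regulator of its stress response, ran from 153 to 302 CPM in trained mice, from 178 to 297 CPM in CSDS mice and from 203 to 249 CPM in controls. Trained replicates 3 and 6 reached 264 and 302 CPM, against 153 to 205 CPM in the other 4 trained mice. Hsp90b1 reached 405 and 372 CPM in those replicates, against 196 to 256 CPM in the other 4, and Dnajc3, which binds BiP and inhibits the stress kinase PERK, 70.6 and 69.1 CPM, against 38.5 to 50.3 CPM. Replicates 3 and 6 were the top trained mice for 8 of the 11 genes (72.7%), for 22 of all 63 (34.9%) and for 16.2% of all genes tested. After GC correction the counts were 5 of 11 (45.5%), 16 of 63 (25.4%) and 12.2% of all genes. These 2 mice were picked after their values were seen, and they had the lowest GC slopes of the trained group, -0.44 and -0.23. The mean differences of trained from CSDS mice stayed small beside this spread: -0.12 ± 0.16 for Hspa5 (adjusted p = 0.718), 0.19 ± 0.16 for Hsp90b1 (adjusted p = 0.563) and 0.19 ± 0.14 for Dnajc3 (adjusted p = 0.504). After GC correction they were -0.25 ± 0.15, -0.05 ± 0.11 and -0.03 ± 0.11, so the sign turned for Hsp90b1 and Dnajc3. Hspa13, a microsomal HSP70, measured 36.3, 45.0 and 62.1 CPM in trained mice, 32.4, 38.0 and 44.3 CPM in CSDS mice and 32.3, 37.3 and 45.5 CPM in controls. Its difference of trained mice from controls was 0.26 ± 0.12 (adjusted p = 0.445), and 0.10 ± 0.08 after GC correction. Dnajc10, a disulfide reductase with a J-domain, measured 57.0, 66.7 and 78.1 CPM in trained mice, 56.2, 59.8 and 66.9 CPM in CSDS mice and 57.5, 67.4 and 73.9 CPM in controls. It had no difference between trained mice and controls before correction (0.00 ± 0.08, adjusted p = 0.992) and the smallest p of the set after it (-0.24 ± 0.07, adjusted p = 0.362).

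Of the 9 genes listed as mitochondrial, 5 were higher and 4 lower in trained against CSDS mice, with a median of 0.15, and 0.02 after GC correction. Hspa9 (mortalin), the mitochondrial HSP70 that pulls proteins through the inner membrane, measured 213, 244 and 267 CPM in trained mice, 201, 208 and 249 CPM in CSDS mice and 204, 220 and 247 CPM in controls. Its difference of trained from CSDS mice was 0.16 ± 0.08 (unadjusted p = 0.0485, adjusted p = 0.317), and its sign turned under GC correction, to -0.07 ± 0.08. Hspd1, the chaperonin, measured 118, 146 and 199 CPM in trained mice, 127, 132 and 167 CPM in CSDS mice and 120, 137 and 157 CPM in controls. Its partner Hspe1 measured 32.0, 62.6 and 65.3 CPM in trained mice, 38.2, 45.7 and 66.4 CPM in CSDS mice and 26.2, 54.9 and 72.1 CPM in controls. The pair lies head to head on opposite strands, around the Hspe1 stretch shown above, and its annotated exons overlap; Hspd1 differed by 0.15 ± 0.11 and Hspe1 by 0.19 ± 0.22 in trained against CSDS mice (adjusted p = 0.511 and 0.681). Hspe1 spread widely within groups (SD of 0.43 on the log2 scale), against 0.20 for Hspd1.

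At synaptic vesicles, Dnajc5 (cysteine string protein), which guards SNARE proteins, and Dnajc6 (auxilin), which brings HSPA8 to clathrin coats, were among the steadiest genes, with SDs within groups of 0.07 and 0.09 on the log2 scale. Dnajc5 ran from 404 to 473 CPM in trained mice, 388 to 424 CPM in CSDS mice and 401 to 455 CPM in controls, and Dnajc6 from 326 to 377, 319 to 371 and 305 to 377 CPM in those groups. Differences of trained from CSDS mice were 0.06 ± 0.06 and 0.04 ± 0.07 (adjusted p = 0.61 and 0.812).

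Dnajc12, a partner for the folding of aromatic amino acid hydroxylases, had the smallest p of the set in CSDS mice against controls. It measured 10.4, 12.3 and 16.5 CPM in trained mice, 8.45, 9.84 and 12.0 CPM in CSDS mice and 8.86, 12.3 and 15.9 CPM in controls. The median of CSDS mice was below those of both other groups, but the values overlapped in each case and no difference was called. The difference was -0.30 ± 0.15 for CSDS mice against controls (unadjusted p = 0.0553, adjusted p = 0.993) and 0.34 ± 0.15 for trained against CSDS mice (adjusted p = 0.287), or -0.25 ± 0.13 and 0.18 ± 0.13 after GC correction. These comparisons share the CSDS mice. Dnajc21, a factor of ribosome biogenesis, measured 16.2, 17.2 and 21.0 CPM in trained mice, 13.3, 15.0 and 17.5 CPM in CSDS mice and 12.4, 16.0 and 29.7 CPM in controls, the highest again in control replicate 2.

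Small heat shock proteins hold unfolded proteins without ATP. Of the 8 genes of that name, 4 passed the filter: Hspb1, Hspb6, Hspb8 and Hspb11, the last of which is a component of intraflagellar transport. Hspb1 (HSP25), whose promoter above holds 2 pairs, measured 3.98, 4.39 and 8.33 CPM in trained mice, 4.21, 5.34 and 8.28 CPM in CSDS mice and 3.26, 6.20 and 10.5 CPM in controls. Trained replicate 6, at 8.33 CPM, stood above 5 trained mice that lay between 3.98 and 4.72 CPM. The difference of trained mice from controls was -0.37 ± 0.25 (adjusted p = 0.583), or -0.16 ± 0.28 after GC correction. Hspb3, a small heat shock protein of muscle, reached 3.58 CPM in control replicate 2, against 0.0454 to 0.652 CPM in the other 17 mice, and was below the filter. Control replicate 2 was the highest or lowest of 18 mice for 13 of the 63 genes (20.6%), against 30.4% of all genes tested.

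The 39 tested genes not given so far by lowest, median and highest value, of which 20 were higher and 19 lower in trained against CSDS mice, had unadjusted p of at least 0.07 there, 0.141 in trained mice against controls and 0.193 in CSDS mice against controls. Dnajb9, a J-domain protein of the endoplasmic reticulum that the unfolded protein response induces, had the highest of their folds in trained against CSDS mice. It measured 20.5, 37.9 and 45.8 CPM in trained mice, 22.7, 25.4 and 38.9 CPM in CSDS mice and 24.1, 34.8 and 41.9 CPM in controls, a difference of 0.37 ± 0.19 in trained against CSDS mice (adjusted p = 0.355) and 0.21 ± 0.15 after GC correction. Trained replicate 4, at 20.5 CPM, was again the exception in its group, and CSDS replicates 4 and 5, at 37.2 and 38.9 CPM, in theirs. Dnajb12, a membrane partner related to Dnajb14, went the other way, with 38.3, 45.5 and 66.4 CPM in trained mice, 48.0, 58.0 and 68.5 CPM in CSDS mice and 46.9, 49.3 and 66.9 CPM in controls (-0.25 ± 0.13 in trained against CSDS mice, adjusted p = 0.367). Its GC content was 54.4%, against 44.0% for Dnajb14, and after GC correction the 2 genes still differed in sign (-0.16 ± 0.10 for Dnajb12 and 0.14 ± 0.06 for Dnajb14). Dnajb11, a soluble partner of BiP, stayed between 42.5 and 55.5 CPM in all mice.

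In the cytosol, Dnajb6 ran from 144 to 212 CPM in trained mice, 152 to 204 CPM in CSDS mice and 129 to 201 CPM in controls. Dnajb2, a neuronal J-domain protein that passes clients to the proteasome, ran from 68.5 to 116 CPM in trained mice, 86.8 to 99.4 CPM in CSDS mice and 74.3 to 117 CPM in controls. Dnajb5 reached 201 CPM in trained replicate 4, with 105 to 128 CPM in the other trained mice, 116 to 164 CPM in CSDS mice and 116 to 152 CPM in controls. These ranges overlapped between groups, and differences of trained from CSDS mice were 0.11 ± 0.12, -0.15 ± 0.12 and -0.13 ± 0.14 (adjusted p = 0.658, 0.533 and 0.656). Dnajc7, which binds both HSP70 and HSP90 and overlaps Cnp and Nkiras2 on the opposite strand, showed 0.12 ± 0.08 (adjusted p = 0.472), and Hspa4, the constitutive HSP110, 0.05 ± 0.09 (adjusted p = 0.812). Hspa12a, a divergent HSP70 of brain, stayed between 279 and 383 CPM. In mitochondria, Dnaja3 stayed between 70.2 and 84.0 CPM (-0.08 ± 0.06, adjusted p = 0.476), while Dnajc19 and Dnajc15, homologues of yeast import motor subunits, ran from 6.70 to 19.97 CPM and from 39.0 to 68.3 CPM. Of the small heat shock proteins, Hspb8, which acts with BAG3 in selective autophagy, ran from 14.1 to 20.6 CPM in trained mice, 13.2 to 30.3 CPM in CSDS mice and 13.4 to 27.2 CPM in controls. Hspb6 and Hspb11 stayed at or below 6.27 CPM in every mouse. Dnajb13, a component of motile cilia that overlaps Ucp2 on the opposite strand, and Dnajb3, a testis gene, stayed at or under 2.70 CPM in every mouse and had SDs within groups of 0.85 and 0.56 on the log2 scale. Dnajb3 had the lowest fold of the 39 in trained against CSDS mice (-0.60 ± 0.34, adjusted p = 0.39) and the highest in CSDS mice against controls (0.46 ± 0.34, adjusted p = 0.993), and Hspb11 the highest in trained mice against controls (0.37 ± 0.24, adjusted p = 0.57). The other 15 (Dnajc1, Dnajc2, Dnajc4, Dnajc8, Dnajc9, Dnajc11, Dnajc13, Dnajc14, Dnajc16, Dnajc17, Dnajc24, Dnajc25, Dnajc27, Dnajc28 and Dnajc30) had differences of -0.17 to 0.22 in trained against CSDS mice, -0.20 to 0.14 in trained mice against controls and -0.13 to 0.16 in CSDS mice against controls. The 7 untested genes reached at most 0.652 CPM outside control replicate 2.

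Fold changes of the set followed transcript GC content. Across the 63 genes, which share libraries, the correlation of the log2 fold with GC content was r = -0.755 for trained against CSDS mice, -0.73 for trained mice against controls and 0.435 for CSDS mice against controls, beside -0.543, -0.444 and 0.148 across the 16421 tested genes with a GC value. In trained against CSDS mice, 32 of the 36 genes with a GC content under 50% were higher (88.9%, beside 81.3% of all such genes), and 20 of the 27 genes at or above 50% were lower. Of all genes at or above 50%, 28.7% were higher, beside 7 of these 27 (25.9%). The median over the 63 genes was 0.05, beside 0.02 for all genes, with 39 higher and 24 lower. After correction of each library for its GC trend the split was 34 higher and 29 lower, with a median of 0.02, and the sign of the difference had turned for 21 of the 63 genes. It turned for 19 genes in trained mice against controls and for 7 in CSDS mice against controls. In trained mice against controls the split was 38 higher and 25 lower before correction, and 21 higher and 42 lower after it. In CSDS mice against controls it was 22 higher and 41 lower, and 23 and 40 after correction. With plain library size scaling the first split was 40 and 23, the second 38 and 25, and the third 17 and 46. Medians in trained mice against controls were 0.031 before and -0.028 after GC correction, beside 0.011 and 0.001 for all genes. In CSDS mice against controls they were -0.033 and -0.016, beside 0 and -0.006 for all genes. Whole splits and sign turns were not counted over all genes, and the 63 genes share libraries, so these counts show no shift particular to the set. The spread within groups was smaller after GC correction for 47 of 63 genes, and its median SD on the log2 scale was 0.19 after correction, against 0.23 before it. For Dnajb14 the SD was 0.08 after correction, against 0.19 before it, and for Dnaja2 0.08 against 0.18. The correction takes out a trend fitted to these same libraries, so a smaller spread is no check of the corrected folds. The share of all genes with a smaller spread was not counted. GC slopes also differed between the groups, so the correction can take out group differences linked to GC content, whatever their origin.

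**Figure D3:**
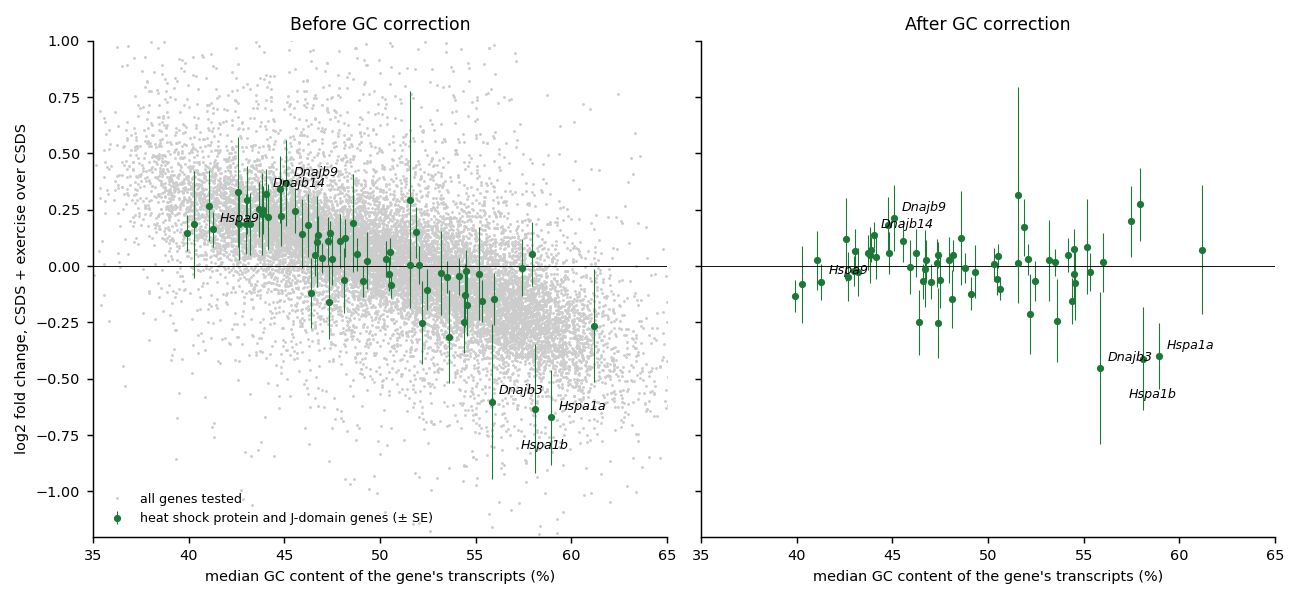
Log2 fold change of trained over CSDS mice against the median GC content of each gene's transcripts, for the 63 genes (green, ± SE) before GC correction (left, with all tested genes in grey, those beyond the axis not drawn) and after it (right). The slope across the 63 genes (r = -0.755) is seen on the left, and Hspa1a and Hspa1b lie at -0.67 and -0.63 on the left and -0.40 and -0.41 on the right.

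**Figure D4:**
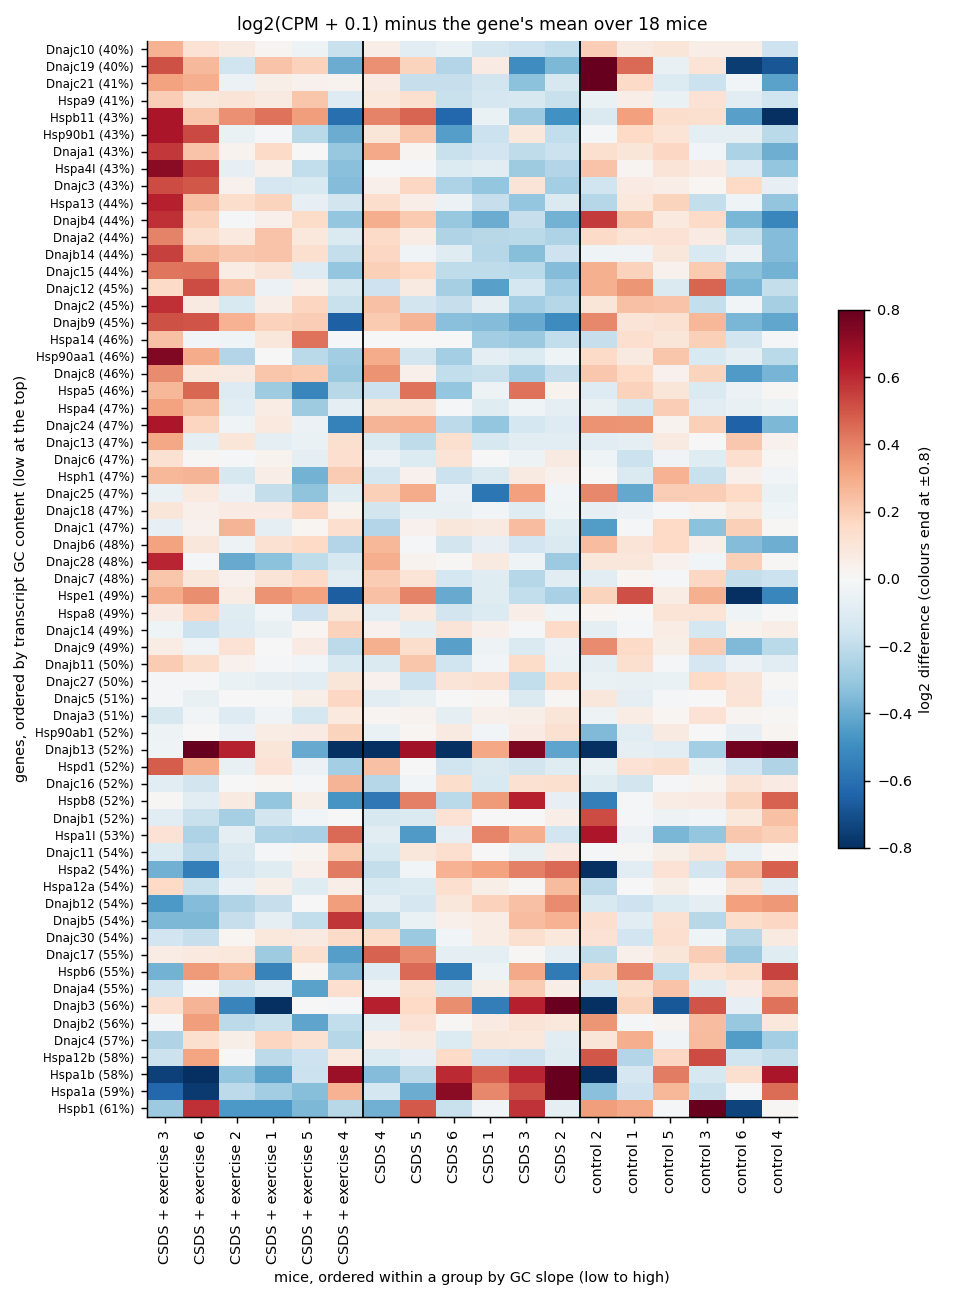
Log2(CPM + 0.1) of the 63 genes in each mouse minus the gene's mean over 18 mice, with genes ordered by GC content from low at the top and mice ordered within a group by GC slope. Trained replicate 3, with the lowest slope (-0.44), is high in the upper rows, and trained replicate 4, with a slope of 0.19, shows low values there.

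To ask which genes vary together among mice, Hsph1 was set against 16 other genes (13 heat-inducible genes, Hspa5, Hsp90b1 and Hspa9), as deviations from the group mean over 18 mice. Genes outside the set were not put through this test. How common such relations are among all genes is thus not known, and none is shown to be particular to chaperone genes. Hspa8 followed Hsph1 most closely, with Pearson's r = 0.77 (permutation test, two-sided, p = 0.00087, adjusted over 16 relations p = 0.014) and Spearman's rho = 0.74 (permutation p = 0.0018, adjusted p = 0.028). Dnaja4 had r = 0.72 (permutation p = 0.003, adjusted p = 0.024) and rho = 0.67 (permutation p = 0.006, adjusted p = 0.048). Hspa5 had r = 0.68 (permutation p = 0.0054, adjusted p = 0.029) and rho = 0.62 (permutation p = 0.012, adjusted p = 0.063). Without the 2 mice farthest from the median of Hsph1, trained replicate 5 and control replicate 5, r was 0.69, 0.54 and 0.62 for these genes. After GC correction it was 0.79 for Hspa8, 0.65 for Dnaja4 and 0.65 for Hspa5 (permutation adjusted p = 0.015, 0.04 and 0.04), and Spearman's rho was 0.77, 0.59 and 0.65 (permutation adjusted p = 0.019, 0.08 and 0.066), so by rho Hspa8 alone passed. Of the 13 genes listed as heat-inducible, Hspa8 and Dnaja4 thus passed by r, while the others did not. Among those, r was 0.02 for Hspa1a, 0.02 for Hspa1b and -0.05 for Dnajb1 (permutation adjusted p = 0.94 for each), and the other 10 relations also had adjusted p above 0.05.

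**Figure D5:**
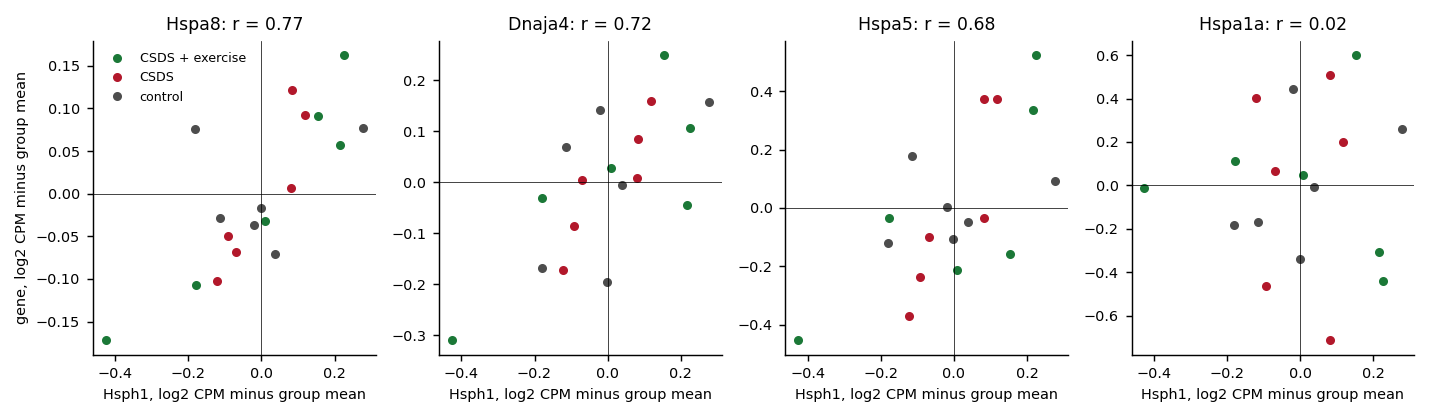
Log2 CPM minus the group mean of Hspa8, Dnaja4, Hspa5 and Hspa1a (y axes) against that of Hsph1 (x axis), 1 point per mouse and coloured by group. The points of the first 3 panels rise from left to right (r = 0.77, 0.72 and 0.68), and those of Hspa1a do not (r = 0.02).

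Of 50 other chaperone genes (heat shock factors, co-factors of HSP70 and HSP90, and subunits of the cytosolic chaperonin), 48 were tested and none passed the adjusted threshold in any comparison. In trained against CSDS mice 3 of the 48 were higher at an unadjusted p under 0.05, beside 8.1% of all genes, and 5 were lower, beside 7.46%. Hspbp1, which releases nucleotide from HSP70, ran from 45.3 to 55.1 CPM in trained mice, against 56.4 to 73.6 CPM in CSDS mice, without overlap, as were 0.526% of all genes (-0.38 ± 0.08, adjusted p = 0.143). Fkbp8, an anchored partner of HSP90, showed -0.27 ± 0.08, and Ppp5c, a phosphatase bound to HSP90, -0.20 ± 0.07 (adjusted p = 0.198 and 0.229). These 3 genes have GC contents of 60.1%, 58.6% and 56.3%. In trained mice against controls 1 was higher at that threshold, beside 6.8% of all genes, and 4 lower, beside 4.39%, among them Hspbp1 at -0.29 ± 0.08 (adjusted p = 0.204) and Hsf4, a heat shock factor of the lens, at -0.52 ± 0.21 (adjusted p = 0.381). In CSDS mice against controls none reached an unadjusted p under 0.05, beside 3.51% of all genes; the smallest p was that of Hyou1, a nucleotide exchange factor for BiP (0.23 ± 0.12, adjusted p = 0.993), and Fkbp5, a glucocorticoid-induced partner of HSP90, stood at 0.28 ± 0.19 (adjusted p = 0.993).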

How the data were processed

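Poly(A) RNA of the hippocampus was sequenced from stranded libraries, per the labels' protocols. The authors deposited 1 table of expected counts per gene, not normalized; fastp, HISAT2, RSEM and GRCm38 (mm10) are named in the submitters' processing notes, with neither versions nor a strand setting. Values with decimals made up 22.7% of those above 0, so the table was rounded before testing. Identifiers without a symbol (5296, with 0.62% of counts) were kept in the fit. Genes were filtered with filterByExpr (minimum count 10, minimum total 15) and tested over all 18 libraries with edgeR 4.0.16 (quasi-likelihood F test, TMM, Benjamini-Hochberg over 16738 genes) in R 4.3.3; the fold's SE is its size divided by the square root of F. DESeq2 1.42.0, limma 3.58.1 and sva 3.50.0 were used in alternatives. CPM uses TMM library sizes, and CPM per kilobase the principal transcript of GENCODE M21. The GC correction removed each library's smooth trend (lowess, span 0.3) of log2 CPM on transcript GC content (the gene's median), known for 98.1% of tested genes. Only the main edgeR fit was tried on simulated counts. These had no GC slopes, tissue differences or outlying library, so the trial does not test the fit under those features, nor the alternatives. Chi-square per gene between replicates was 9.66 to 162, more than sampling noise gives, so each library was kept as 1 replicate. Among the 70 genes, 27 share exons with another gene. The genes, lists and tests were chosen with earlier results of these data known. Per-mouse values are given for heat-inducible genes, for the 6 smallest p of each comparison and for groups that do not overlap; a few more genes and mice were named after their values were seen.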

Additional observations from a re-analysis of the deposited data

Results flagged for a closer look

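Of 72 groups examined (24 genes in 3 groups of 6 mice), 6 held a mouse far from the other 5 by Dixon's test, which flags about 1 in 20 groups by chance. Hspa1b was at 37.6 CPM in trained replicate 4, against 11.3 to 20.7 CPM in the other trained mice. Hspb1 was at 8.33 CPM in trained replicate 6, against 3.98 to 4.72 CPM. CSDS replicate 4 was high for Hsp90aa1, at 941 CPM against 634 to 748 CPM in the other CSDS mice, and for Hspd1, at 167 CPM against 127 to 142 CPM. Hspa12b was at 12.3 CPM in CSDS replicate 6, against 9.85 to 10.6 CPM. Dnajc21 was at 29.7 CPM in control replicate 2, against 12.4 to 18.6 CPM in the other controls. Whether the GC slopes, marker sums or mitochondrial shares of these libraries play a part was not tested.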

How the results depend on the processing

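The count of called genes was 0 in every alternative for CSDS mice against controls and for trained mice against controls. For trained against CSDS mice it was 22 with limma voom and quality weights, beside 33.3% of all genes. It was 0 to 2 when 1 library was left out (2 without trained replicate 4, Hspa1a and Dnajb14, beside 3.71% of all genes) and 0 otherwise. At an unadjusted p under 0.05, trained against CSDS mice gave 8 genes in the main analysis, 28 with voom, 5 with the replicate number as a block, 2 with GC correction, 1 with both GC correction and the replicate block, and 4 to 17 with 1 library left out. Over all 16738 genes tested, 1355 were higher and 1249 lower at that threshold in the main analysis, and 3679 and 3784 with voom. The block gave 812 and 1095, GC correction 541 and 457, and both together 370 and 380. With 1 library left out the counts over all genes ran from 883 and 793 (without CSDS replicate 2) to 1849 and 2592 (without trained replicate 4). Trained mice against controls gave 3 genes of the set, with 8 for voom, 5 for GC correction without trained replicate 4, and 2 to 9 with 1 library left out. Over all genes, 1139 were higher and 735 lower in the main analysis, and 1766 and 1447 with voom. GC correction without trained replicate 4 gave 937 and 999. With 1 library left out the counts ran from 817 and 534 (without trained replicate 3) to 1478 and 2044 (without trained replicate 4). CSDS mice against controls gave 0 genes of the set, with 2 without a filter, 1 with a filter of 1 CPM in 6 libraries, 1 when only the compared groups were fitted, 11 with voom, and 0 to 4 with 1 library left out. Over all genes, 307 were higher and 281 lower in the main analysis, and 2074 and 1195 with voom. No filter gave 583 and 753 of 31330, the CPM filter 221 and 290 of 15094, and the compared groups alone 236 and 366 of 16274. With 1 library left out the counts ran from 238 and 163 (without control replicate 2) to 512 and 444 (without control replicate 4). Medians over the genes of the set ranged from 0.0352 to 0.0832, from -0.0211 to 0.0398 and from -0.0648 to -0.0111 in these comparisons with 1 library left out. The causes were not tested. Of the 16 relations with Hsph1, 3 passed by Pearson's r without control replicate 2 and 3 after GC correction, beside 3 in the main analysis; by Spearman's rho the counts were 3, 1 and 2. Same-numbered mice did not deviate together (1 of 18 pairs over 0.1, r from -0.465 to 0.255), so the block is no paired analysis. Depth limits Dnajb3, Dnajb13 and Dnajc25 most, at under 1 CPM per kilobase, and 6 mice a group limit small folds; p-values measure the spread between mice only.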
